A study of Mus musculus with 11 samples.

Results

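The 10 genes described here, Esam, Jam2, Jam3, F11r, Cldn5, Cdh5, Pecam1, Robo4, Clec14a and Egfl7, encode proteins best known from the contacts between endothelial cells and from the guidance of growing vessels. They were taken from the count table by gene symbol and are 10 of the 54347 genes in the deposited count table. They were measured in blood-forming cells of mouse bone marrow. Sorted populations of female C57BL/6NTac mice were sequenced, 4 libraries of long-term haematopoietic stem cells (LT-HSCs) carrying endomucin (EMCN+), 3 of LT-HSCs without it (EMCN-) and 4 of granulocyte-monocyte progenitors (GMPs). Endomucin is a surface sialomucin that is itself known from endothelium, and GMPs served as the more differentiated comparison. All populations came from lineage-depleted marrow of the hind legs, the mice carried no named allele or treatment, and their age was not given in the sources used here. LT-HSCs were gated as CD150+ CD48- cells with Sca-1 and c-Kit, at 3000 to 5000 cells a sample. The EMCN+ and GMP libraries came from mice 1 to 4, and the EMCN- libraries from mice 1, 2 and 4, because the submitters removed 1 EMCN- library for its quality.

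Endothelial cells are joined by tight junctions and adherens junctions. In tight junctions, claudins close the gap between cells, while immunoglobulin-like proteins such as the junctional adhesion molecules (JAMs) and ESAM bind their like, or each other, across it. In adherens junctions, VE-cadherin binds the catenins. PECAM-1 sits at the same borders and is also carried by platelets and many leukocytes, and ESAM and JAM-C are in use as surface markers or homing receptors of haematopoietic stem cells. ROBO4, an endothelial relative of the axon guidance receptors, has likewise been studied in stem cell homing.

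Totals ran from 3.63 to 11.1 M estimated counts a library (4.39 to 11.1 M in EMCN+, 3.63 to 5.65 M in EMCN- and 6.32 to 9.19 M in GMP libraries). Levels below are counts per M counts (CPM), with library sizes scaled by TMM, and 1 count was worth 0.0697 to 0.235 CPM. A count of 0 over a population allows up to 3 counts, which is 0.0779 CPM for EMCN+ cells, 0.177 CPM for EMCN- cells and 0.135 CPM for GMPs. These limits, and the intervals of pooled ratios given below, cover counting error only. The sort gene Emcn had means of 26.2 CPM in cells sorted as EMCN+ and 14.4 CPM in those sorted as EMCN-, and the log2 difference of 0.87 ± 0.27 (SE) did not pass edgeR's quasi-likelihood test (adjusted p = 0.11), which ran from 0.00289 to 0.397 over 20 alternatives and gave a call in 7 of them, among them DESeq2 and the 7 LT-HSC libraries alone, and when the GMP sample of mouse 2 (0.0469) or mouse 3 (0.044) was left out. The labelled cell types were checked against marker lists. The summed level of 12 LT-HSC markers was 2020 to 2370 CPM in EMCN+ samples, 1640 to 1940 CPM in EMCN- samples and 180 to 251 CPM in GMP libraries, and that of 10 GMP markers was 59.9 to 63.5, 52.5 to 63.9 and 15600 to 18900 CPM. No library went against its label as LT-HSC or GMP, and these sums do not check the EMCN+ and EMCN- labels. The LT-HSC list includes Slamf1, Ly6a, Kit and Emcn, whose proteins were used in the sort, so its outcome was partly set by the gate.

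Compared with GMPs, 7 of the 8 members that could be tested were higher in both LT-HSC fractions, and Pecam1 alone was lower. Esam, Jam2, Jam3, F11r, Robo4 and Clec14a had from 0 to 7 counts over all 4 GMP libraries together. Egfl7 was present in GMPs at a lower level. Cdh5 and Cldn5 were near the limit of detection in every population and did not pass the filter on low counts. Over all 14915 genes tested, 61.3% were called between EMCN+ LT-HSCs and GMPs (31.9% higher, 29.4% lower), and 52.7% between EMCN- LT-HSCs and GMPs (28.3% higher, 24.4% lower). The 6 genes near 0 in GMPs passed the filter through the LT-HSC libraries and so had to differ. Neither their count nor their adjusted p values against GMPs, given below, add anything to the levels themselves. Egfl7 and Pecam1 were above the filter's minimum in GMPs as well. For all 7 members called higher, every library of either LT-HSC fraction lay above every GMP library, as for 29.6% of genes in EMCN+ and 28.7% in EMCN- LT-HSCs, and for Pecam1 every one lay below, as for 27.7% and 25.8%. The comparisons with GMPs share the same GMP libraries. In bulk RNA, fewer cells expressing a gene and less RNA per cell cannot be told apart.

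**Figure D1:**
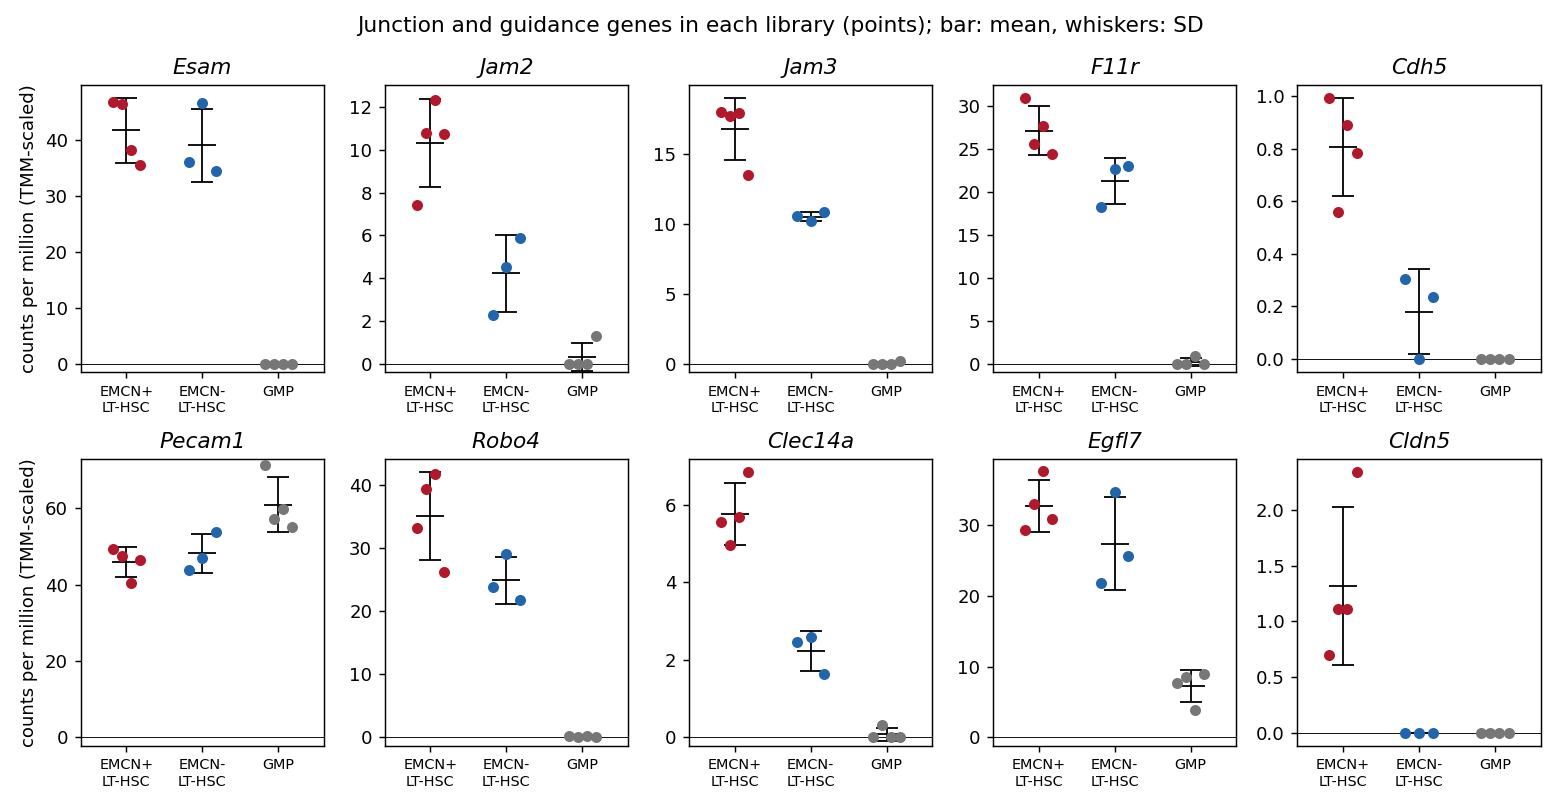
Each panel plots a gene's level in counts per M counts (vertical axis, TMM-scaled) in every library, with the 4 EMCN+, 3 EMCN- and 4 GMP samples along the horizontal axis; points are libraries, the long bar is the mean and whiskers are the SD. Esam lay at 34.5 to 47.0 CPM in all 7 LT-HSC libraries and at 0 in all GMP libraries, whereas Pecam1 lay at 40.4 to 71.5 CPM in all 11.

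Esam encodes an immunoglobulin-like adhesion protein of endothelial tight junctions and platelets. It was read at 47.0, 46.4, 38.2 and 35.6 CPM in EMCN+ libraries of mice 1 to 4, and at 36.1, 46.7 and 34.5 CPM in EMCN- libraries of mice 1, 2 and 4. No count fell on it in any GMP library, against 1664 counts in EMCN+ and 672 in EMCN- LT-HSCs. The LT-HSC fractions overlapped, and both stood far above GMPs. The pooled level was at least 320-fold higher in EMCN+ LT-HSCs than in GMPs (adjusted p = 1.66e-13, edgeR) and at least 293-fold higher in EMCN- LT-HSCs (adjusted p = 6.54e-13). Total-count scaling raised these bounds to 574 and 482, and leaving out the GMP library of mouse 1 lowered them to 229 and 209. Of 10270 genes with a mean of at least 5 CPM in both LT-HSC fractions, 0.302% had no GMP count and 1.37% had 7 or fewer. That set reaches well below the level of Esam. The cut-offs match the GMP counts of Esam and Jam2, so these shares only describe. Jam2 and Clec14a, with EMCN- means of 4.23 and 2.225 CPM, are themselves not among the 10270 genes.

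F11r encodes JAM-A, a JAM of epithelium, endothelium, platelets and leukocytes. Its level was 30.9, 25.6, 27.6 and 24.4 CPM in EMCN+ libraries and 18.2, 22.6 and 23.0 CPM in EMCN- libraries. Only the GMP library of mouse 3 held any count, 4 counts or 0.911 CPM. The pooled ratio to GMPs was 152 for EMCN+ (95% counting interval 59.0 to 557, adjusted p = 1.15e-10, edgeR) and 117 for EMCN- LT-HSCs (45.2 to 431, adjusted p = 9.01e-10). Without that GMP library the ratios were at least 162 and at least 125, and without that of mouse 1 they were 108 and 83.4.

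Jam3 encodes JAM-C, which binds JAM-B across cell contacts. It was read at 18, 17.7, 17.9 and 13.5 CPM in EMCN+ libraries and at 10.6, 10.2 and 10.8 CPM in EMCN- libraries. A single count, in mouse 4, was found in GMPs. The pooled ratio to GMPs was 384 for EMCN+ (68.6 to 15200, adjusted p = 3.13e-12, edgeR) and 233 for EMCN- LT-HSCs (41.3 to 9250, adjusted p = 7.98e-11), and without the GMP library of mouse 4 it was at least 97.0 and at least 58.9. An annotated antisense gene, Gm48796, overlaps Jam3 and had 46, 8 and 19 counts in EMCN+, EMCN- and GMP libraries. The overlap is of whole gene spans, and overlap of exons was not tested. The table counts each gene apart, and the strand setting was not given in the sources used here. Whether any reads were shared was not tested.

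Jam2 encodes JAM-B, the partner of JAM-C. Its level was 7.45, 10.8, 12.4 and 10.8 CPM in EMCN+ libraries and 2.29, 4.52 and 5.87 CPM in EMCN- libraries. The GMP library of mouse 4 held 7 counts, or 1.31 CPM, and the other GMP libraries none. Even so every LT-HSC library lay above every GMP library, with a pooled ratio of 32.6 for EMCN+ (15.7 to 81.7, adjusted p = 1.85e-05, edgeR) and 12.7 for EMCN- LT-HSCs (5.84 to 32.8, adjusted p = 0.00101). Leaving out the GMP library of mouse 4 moved these to at least 57.8 and at least 22.5, and leaving out that of mouse 1 to 23.3 and 9.08.

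Robo4 encodes a receptor of the roundabout family that is largely restricted to endothelium and stem cells. It was read at 33.2, 39.3, 41.8 and 26.2 CPM in EMCN+ libraries and at 23.9, 29.1 and 21.9 CPM in EMCN- libraries. GMPs held 2 counts in all, 1 each in mice 1 and 3. The pooled ratio to GMPs was 406 for EMCN+ (112 to 3350, adjusted p = 9.82e-14, edgeR) and 281 for EMCN- LT-HSCs (77.2 to 2320, adjusted p = 1.33e-12). Without the GMP library of mouse 3 these were 651 (117 to 25700) and 450 (80.4 to 17800). Leaving out that of mouse 2 lowered them to 294 (81.2 to 2430) and 203 (55.9 to 1680). Clec14a encodes a C-type lectin-like protein of endothelium that takes part in vessel sprouting. At 5.56, 4.95, 5.68 and 6.84 CPM in EMCN+ libraries and 2.45, 2.58 and 1.64 CPM in EMCN- libraries it was much less abundant than Robo4. Its 2 GMP counts both fell in mouse 2, and the ratios to GMPs were 61.4 (16.8 to 511, adjusted p = 2.47e-07, edgeR) and 25.5 (6.60 to 218, adjusted p = 4.15e-05). Without that library they were at least 29.7 and at least 12.3, bounds that the smaller GMP depth lowers.

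Egfl7 encodes a secreted factor that endothelial cells lay down in the matrix of growing vessels, and its gene hosts the microRNA miR-126. It differed from the genes above in being read in every GMP library, at 7.73, 8.49, 3.87 and 8.96 CPM. The level was 29.4, 33.0, 37.8 and 30.9 CPM in EMCN+ libraries and 21.9, 34.7 and 25.6 CPM in EMCN- libraries. The log2 difference from GMPs was 2.15 ± 0.21 (SE) for EMCN+ (adjusted p = 1.21e-08, edgeR) and 1.89 ± 0.22 for EMCN- LT-HSCs (adjusted p = 3.19e-07), with no overlap between LT-HSC and GMP libraries. The Egfl7 locus overlaps Gm20532 on its own strand, with 4, 3 and 0 counts in EMCN+, EMCN- and GMP libraries, and the end of Agpat2 on the other strand, with 592, 288 and 629 counts. These overlaps are also of whole gene spans, and whether any reads were shared was not tested.

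Pecam1, the adhesion protein CD31, took the opposite order to the other tested members. It was read at 49.4, 47.4, 40.4 and 46.5 CPM in EMCN+ libraries, at 43.8, 47.0 and 53.8 CPM in EMCN- libraries and at 71.5, 57.3, 59.9 and 55.2 CPM in GMP libraries. Every GMP library lay above every LT-HSC library, by a small margin. With TMM scaling Pecam1 was lower than in GMPs by a log2 difference of -0.41 ± 0.12 in EMCN+ (adjusted p = 0.00429, edgeR) and -0.34 ± 0.13 in EMCN- LT-HSCs (adjusted p = 0.0277), whereas with scaling by total counts the direction flipped, to 0.42 (adjusted p = 0.00662) and 0.38 (adjusted p = 0.0262). That scaling moved the median log2 difference of all genes from 0.04 to 0.86 for EMCN+ and from 0.03 to 0.75 for EMCN- LT-HSCs, and the share of calls that were higher in LT-HSCs from 52.0% to 82.7% and from 53.7% to 84.8%. Relative to those medians Pecam1 lay below the typical gene under both scalings. The call for EMCN- LT-HSCs was also lost when the EMCN- sample of mouse 1 (adjusted p = 0.128) or mouse 2 (0.0551) or the GMP sample of mouse 1 (0.101) was left out, and with no filter on low counts (0.0672).

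**Figure D2:**
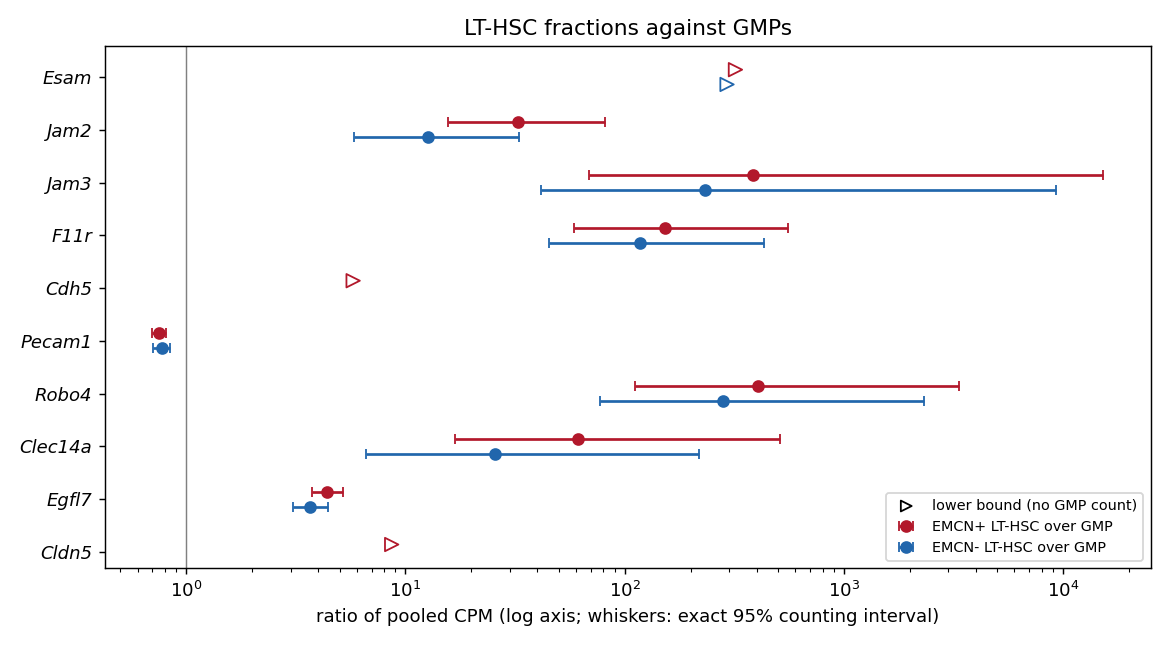
The plot gives, for each gene (vertical axis), the ratio of its pooled level in EMCN+ (red) or EMCN- (blue) LT-HSCs to that in GMPs on a log axis; points carry exact 95% counting intervals and open triangles are lower bounds where GMPs had no count. Pecam1 falls just below 1 with TMM scaling, Egfl7 near 4, and the others from 12.7 upwards or at bounds of 5.77 or more; no ratio is drawn for Cdh5 and Cldn5 in EMCN- LT-HSCs, which held 3 counts or fewer.

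Cdh5 and Cldn5, the genes of VE-cadherin and of the main claudin of brain endothelium, define endothelial adherens and tight junctions and were barely read here. Cdh5 had 10, 8, 8 and 4 counts in EMCN+ libraries, or 0.993, 0.558, 0.891 and 0.782 CPM. EMCN- libraries held 2, 0 and 1 counts and GMPs none. The pooled level in EMCN+ was at least 5.77-fold higher than in GMPs and 4.41 times that in EMCN- LT-HSCs (95% counting interval 1.37 to 22.6). The last ratio was 8.14 (1.35 to 332) without the EMCN- library of mouse 1 and 2.80 (0.872 to 14.4) without that of mouse 2. Cldn5 had 7, 16, 10 and 12 counts in EMCN+ libraries, or 0.695, 1.12, 1.11 and 2.35 CPM, and no count in any EMCN- or GMP library. That placed it at least 6.62-fold higher in EMCN+ than in EMCN- LT-HSCs and at least 8.65-fold higher than in GMPs. Without the EMCN- library of mouse 1 or mouse 2 the first bound fell to 4.07 or 4.20. With total-count scaling the bounds against GMPs rose to 15.5 for Cldn5 and 10.4 for Cdh5. Leaving out the GMP library of mouse 1 lowered them to 6.19 for Cldn5 and 4.12 for Cdh5. Both genes were thus read in 4 of 4 EMCN+ libraries and, in GMPs, in none.

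Per kb of transcript, which allows genes to be compared, the order in EMCN+ LT-HSCs began with Egfl7 at 30.3 ± 3.37 CPM per kb (SD, n = 4) and Esam at 22.4 ± 3.09. Pecam1 followed at 14.4 ± 1.22, F11r at 10.8 ± 1.12, Robo4 at 9.09 ± 1.80 and Jam3 at 8.64 ± 1.13. F11r, Robo4 and Jam3 were within their spread of each other. Jam2 stood at 4.09 ± 0.819, and Clec14a, Cldn5 and Cdh5 closed the order at 1.26 ± 0.173, 0.930 ± 0.504 and 0.202 ± 0.0467, with the levels of Clec14a and Cldn5 not apart beyond their spread. EMCN- LT-HSCs gave the same order for the first 8 genes, from Egfl7 at 25.3 ± 6.10 (SD, n = 3) and Esam at 21.0 ± 3.54, which overlapped, to Clec14a at 0.487 ± 0.111, with Cdh5 at 0.0451 ± 0.0401 above Cldn5 at 0. In GMPs only Pecam1, at 19.1 ± 2.27 (SD, n = 4), and Egfl7, at 6.71 ± 2.14, exceeded 0.129 CPM per kb. Lengths are means over annotated protein-coding transcripts, and which isoforms the cells used was not tested. The 7 transcripts of Egfl7 run from 683 to 1391 bases. For Egfl7 and Robo4 the annotation held another version of the identifier than the count table. The SDs carry no uncertainty of length.

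The members were also placed on the genome (GRCm38, GENCODE M21). Esam (chromosome 9, 37528078 to 37538319, plus strand) and Robo4 (chromosome 9, 37401897 to 37415115, plus strand) are neighbours, 113.0 kb apart with the genes Robo3 and Msantd2 between them. Jam3 lies on the same chromosome (27097384 to 27155421, minus strand) with 58 protein-coding genes between it and Robo4. Jam2 (chromosome 16, 84774123 to 84825928, plus strand) and Cldn5 (chromosome 16, 18776847 to 18778262, plus strand) share a chromosome but are far apart. F11r is on chromosome 1 (171437535 to 171464603, plus strand), Egfl7 on chromosome 2 (26580014 to 26593120, plus strand), Cdh5 on chromosome 8 (104101625 to 104144511, plus strand), Pecam1 on chromosome 11 (106654217 to 106750628, minus strand) and Clec14a on chromosome 12 (58264720 to 58269290, minus strand). Cldn5 and Clec14a have 1 exon each, so unspliced and spliced RNA of these genes cannot be told apart.

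Promoter sequences, 250 bases before to 50 bases after a start site (RefSeq, GRCm38.p6), matched 5 of the 10 members with 7 windows. Each window was searched on both strands for 4 short motifs, and no matches overlapped. For ETS factors the letters were GGAAGT, a longer form of the core GGAA, which occur in 23.8% of 32851 promoters of the same length. For GATA factors they were GATAAG, which occur in 7.44% of them. The E-box, CANNTG, occurs in 72.3%, and the RUNX letters, TGTGGT, in 16.8%. The exact letters GGAAGT were found in 2 of the 3 Egfl7 windows and in no window of F11r, Robo4, Clec14a or Cldn5. E-box letters were found in windows of Egfl7, F11r, Robo4 and Cldn5, and the exact letters GATAAG and TGTGGT in none of the 7. The 3 windows below are shown, with matches in capitals, because these genes gave 3 different patterns over the populations: Egfl7 was read in all of them, Robo4 in LT-HSCs with 2 GMP counts, and Cldn5 in EMCN+ LT-HSCs alone. The Egfl7 window (chr2:26583615-26583914, plus strand) holds 1 ETS match, 79 bases before the start. The Robo4 window (chr9:37401722-37402021, plus strand) holds 2 E-box matches and the Cldn5 window (chr16:18776597-18776896, plus strand) 1. A match describes letters and not a bound site. Only these exact letters were searched. Shorter or other forms of the motifs, such as GGAA alone, were not searched and may be present in windows without a match.
Egfl7: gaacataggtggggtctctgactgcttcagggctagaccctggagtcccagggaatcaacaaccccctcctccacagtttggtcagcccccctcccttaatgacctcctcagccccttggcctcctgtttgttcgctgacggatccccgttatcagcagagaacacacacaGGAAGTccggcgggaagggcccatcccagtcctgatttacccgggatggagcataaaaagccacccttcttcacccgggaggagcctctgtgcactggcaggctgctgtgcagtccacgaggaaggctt
Robo4: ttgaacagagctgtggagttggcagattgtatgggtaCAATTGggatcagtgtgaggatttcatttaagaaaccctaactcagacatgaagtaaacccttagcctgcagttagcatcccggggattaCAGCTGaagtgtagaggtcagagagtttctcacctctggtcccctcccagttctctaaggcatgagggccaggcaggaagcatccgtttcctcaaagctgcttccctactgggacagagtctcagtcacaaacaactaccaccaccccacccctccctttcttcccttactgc
Cldn5: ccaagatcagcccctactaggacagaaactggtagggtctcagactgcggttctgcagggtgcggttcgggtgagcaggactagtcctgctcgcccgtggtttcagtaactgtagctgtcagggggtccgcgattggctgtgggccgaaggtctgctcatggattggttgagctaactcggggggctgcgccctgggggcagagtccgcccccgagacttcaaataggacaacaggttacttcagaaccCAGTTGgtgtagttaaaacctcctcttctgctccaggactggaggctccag

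Between EMCN+ and EMCN- LT-HSCs no member passed the test across all genes, although 7 of the 8 tested had the higher level in EMCN+ cells. None of 8 members was called at an adjusted p of 0.05 (edgeR), where 1.96% of all 14915 genes were called (0.771% higher and 1.19% lower in EMCN+) and 50% had a positive difference. Of the members 4, Jam2, Jam3, Robo4 and Clec14a, had an unadjusted p under 0.05 and were higher in EMCN+, against 5.99% of all genes. DESeq2 and limma-voom called none of the 8 either. The median log2 difference of the 8 was 0.43, beside 0 over all genes. The background count of 293 genes itself depended on single libraries, with 55, 194 or 191 genes called when the EMCN- sample of mouse 1, 2 or 4 was left out, and 105 or 184 when the EMCN+ sample of mouse 2 or 4 was.

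Clec14a and Jam2 had the largest differences among the tested members. Clec14a was higher in EMCN+ by a log2 difference of 1.34 ± 0.49 (SE, unadjusted p = 0.0122, adjusted p = 0.19, edgeR), and its lowest EMCN+ library, at 4.95 CPM, stood above its highest EMCN- library, at 2.58 CPM. Jam2 differed by 1.31 ± 0.55 (unadjusted p = 0.032, adjusted p = 0.295), with 7.45 CPM in the lowest EMCN+ and 5.87 CPM in the highest EMCN- library. In the 3 mice with both fractions the EMCN+ level was 1.92 to 4.16 times the EMCN- level for Clec14a and 1.83 to 3.24 times for Jam2. In the fit of these 6 paired libraries with mouse as a block, both were called, Jam2 with 1.25 ± 0.28 (adjusted p = 0.0115) and Clec14a with 1.31 ± 0.38 (adjusted p = 0.0453). That fit called 6.76% of all genes it tested. Jam2 was also called in a fit of the 7 LT-HSC libraries alone (adjusted p = 0.0362) and with no filter on low counts (adjusted p = 0.0323). Over all alternatives its adjusted p ran from 0.0115 to 0.645, and that of Clec14a from 0.0453 to 0.416.

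Jam3, Robo4 and F11r were higher in EMCN+ in all 3 mice, by smaller amounts. Jam3 differed by a log2 difference of 0.68 ± 0.24 (unadjusted p = 0.0105, adjusted p = 0.178, edgeR), with within-mouse ratios of 1.25 to 1.74. Robo4 differed by 0.50 ± 0.19 (unadjusted p = 0.0174, adjusted p = 0.225), with ratios of 1.20 to 1.39, and the EMCN+ library of mouse 4 fell inside the EMCN- range. F11r differed by 0.36 ± 0.26 (unadjusted p = 0.186, adjusted p = 0.596), with ratios of 1.06 to 1.70. No alternative brought any of these 3 to a call.

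Esam, Egfl7 and Pecam1 overlapped between the fractions. The log2 difference was 0.10 ± 0.16 for Esam (95% interval -0.22 to 0.41, adjusted p = 0.86, edgeR), 0.26 ± 0.20 for Egfl7 (-0.13 to 0.65, adjusted p = 0.628) and -0.06 ± 0.13 for Pecam1 (-0.31 to 0.18, adjusted p = 0.892). For Pecam1 the sign turned with scaling by total counts (0.047), which moved the median of all genes by 0.11, and without EMCN- replicate 4 (0.019). Within mice the EMCN+ to EMCN- ratio ran from 0.995 to 1.30 for Esam, from 0.95 to 1.34 for Egfl7 and from 0.865 to 1.13 for Pecam1.

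Every EMCN+ library lay above every EMCN- library for 4 of the 8 tested members, Jam2, Jam3, F11r and Clec14a, a pattern that 7.25% of all tested genes showed. It also held for Cdh5 and Cldn5, which were not in the fit. A 2-sided exact permutation test over the 7 LT-HSC libraries, whose smallest possible p is 0.0286, gave p = 0.0286 for Cdh5 and p = 0.0571 for Cldn5. With no filter on low counts the adjusted p was 0.0253 for Cldn5 and 0.664 for Cdh5 (edgeR). When any 1 EMCN- library was left out, Cldn5 passed the filter and its adjusted p was 0.137 to 0.243. Of 1668 genes with 30 to 60 counts in EMCN+ libraries and a count in each, a range set around the 45 counts of Cldn5 after its values were seen, 6 or 0.36% had no count in EMCN- libraries. These were Cldn5, Flrt3, Insm1, Scube1, C430042M11Rik and an unnamed gene, of which Cldn5, Flrt3, Insm1 and Scube1 had none in GMPs either.

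**Figure D3:**
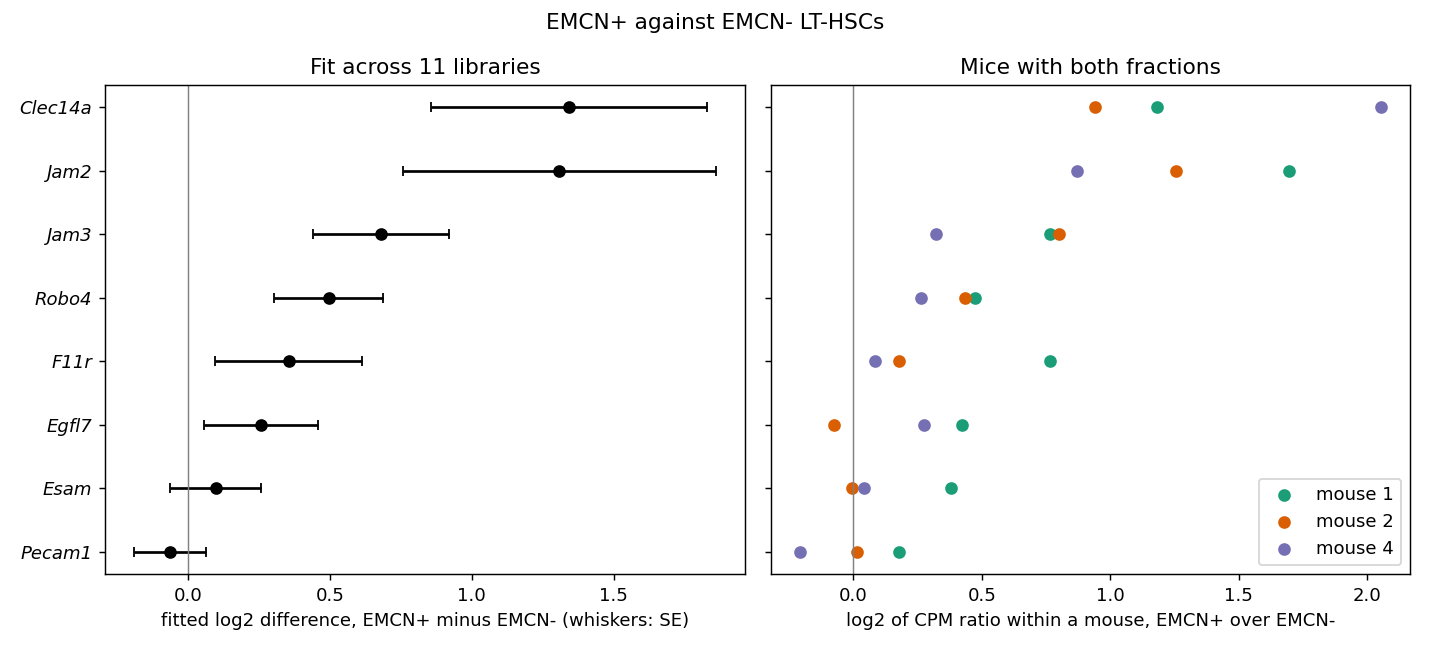
The left panel gives the fitted log2 difference of EMCN+ minus EMCN- LT-HSCs (horizontal axis) for the 8 tested genes, with the SE as whiskers; the right panel gives the log2 ratio of levels within each of the 3 mice with both fractions. Clec14a, Jam2, Jam3, Robo4 and F11r lie above 0 in all 3 mice, and Egfl7, Esam and Pecam1 on both sides of it.

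Partners of these proteins gave a wider view. For scale, 61.3% of all genes tested were called in EMCN+ LT-HSCs against GMPs and 52.7% in EMCN- LT-HSCs. Listed genes without counts in GMPs or in LT-HSCs passed the filter through the other cells and so had to differ. Of 24 tight junction partners listed, 23 were found and 16 tested, of which 11 were higher and 1 lower in EMCN+ LT-HSCs than in GMPs, and 12 higher and 2 lower in EMCN- LT-HSCs. The scaffold genes Patj and Afdn (afadin, which JAMs bind) were the clearest, at 82.4 ± 13.1 and 78.4 ± 11.1 CPM in EMCN+ (SD, n = 4), 65.6 ± 14.5 and 62.5 ± 4.85 CPM in EMCN- (n = 3) and 3.38 ± 0.196 and 4.67 ± 2.04 CPM in GMP libraries (n = 4). Patj differed from GMPs by a log2 difference of 4.60 ± 0.18 in EMCN+ (adjusted p = 2.09e-14, edgeR). Ocln, the gene of occludin, was at 15.5 ± 3.16 and 8.73 ± 1.38 CPM in EMCN+ and EMCN- and had no GMP count. The claudin gene Cldn15 went the other way, with 3 and 2 counts in the LT-HSC fractions and 29.9 ± 2.71 CPM in GMPs. Cgnl1, of the cingulin family, was lower in EMCN- LT-HSCs than in GMPs (adjusted p = 0.0393), a call lost without EMCN- replicate 2 (0.144) or replicate 4 (0.125). None of the 16 was called between the fractions by edgeR, DESeq2 or limma-voom, 3 had an unadjusted p under 0.05 (edgeR) and the 16 had a median log2 difference of 0.21; the smallest p values were those of Ocln (0.84 ± 0.26, adjusted p = 0.123) and Mpdz, the scaffold MUPP1 (0.65 ± 0.24, adjusted p = 0.201), which was called in the 6 paired libraries with mouse as a block (adjusted p = 0.00176) and with no low-count filter (0.0311). In that paired fit, which called 6.76% of all genes, 3 genes of the list were called.

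Of 15 adherens junction partners tested, 12 were higher and 3 lower in EMCN+ LT-HSCs than in GMPs, and 10 higher and 3 lower in EMCN- LT-HSCs. The shares called over all genes were 61.3% and 52.7%. Heg1, a transmembrane partner of the CCM complex, stood at 180 ± 17.1, 183 ± 9.10 and 47.7 ± 6.68 CPM in EMCN+, EMCN- and GMP libraries, and Ptprj, a receptor phosphatase, at 106 ± 12.9, 92.0 ± 10.2 and 28.4 ± 3.05 CPM. Cdh1, the gene of E-cadherin, had no count in any LT-HSC library and 8.5 ± 3.39 CPM in GMPs. Pdcd10 of the CCM complex was also lower, at 25.7 ± 9.0 and 30.6 ± 5.09 against 102 ± 13.5 CPM. The median log2 difference between the fractions was 0.03, and none of the 15 was called by edgeR, DESeq2 or limma-voom, with 2 at an unadjusted p under 0.05 (edgeR). The smallest p values were those of Amotl2 (1.04 ± 0.30, adjusted p = 0.0908, edgeR), an angiomotin family gene, and Ptprb, the VE-cadherin-associated phosphatase VE-PTP (2.10 ± 0.88, adjusted p = 0.275). Amotl2 was called in the 6 paired libraries with mouse as a block (adjusted p = 0.0227), where 2 genes of the list and 6.76% of all genes were called.

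Among the 6 lists of related genes, that of guidance receptors and ligands was the one with calls between the fractions. Of 49 genes 31 were tested, and 4 were higher in EMCN+ than in EMCN- LT-HSCs and none lower, where 0.771% of all genes were called higher. Efnb2, the ligand ephrin-B2 known from arteries, was at 14.3 ± 2.61 against 4.76 ± 0.373 CPM (log2 difference 1.59 ± 0.32, adjusted p = 0.0114, edgeR). Plxnd1, a semaphorin receptor of endothelium, was at 31.4 ± 4.44 against 21.0 ± 2.18 CPM (0.59 ± 0.14, adjusted p = 0.0355). Sema7a, a membrane-bound semaphorin, was at 23.8 ± 2.13 against 13.3 ± 1.12 CPM (0.84 ± 0.21, adjusted p = 0.0405), and Neo1, the netrin and RGM receptor neogenin, at 15.7 ± 5.39 against 5.41 ± 1.38 CPM (1.54 ± 0.39, adjusted p = 0.050). The number of calls depended on single libraries: when the EMCN- sample of mouse 1 was left out, none of the list was called (Efnb2 adjusted p = 0.0855). Leaving out the EMCN+ sample of mouse 2 or 3, or the EMCN- sample of mouse 2 or 4, left 1 call, and leaving out the EMCN+ sample of mouse 1 or 4 left 2. With mouse as a block over 11 libraries, Sema7a lost its call (adjusted p = 0.0693). Neo1 also lost its call with RLE factors (0.0515), limma-voom (0.107) and without the GMP sample of mouse 4 (0.0722), and Plxnd1 in the 7 LT-HSC libraries alone (0.0632). Of 20 alternatives, Neo1 was not called in 9, Sema7a in 8, Plxnd1 in 7 and Efnb2 in 1. The median of the list was 0.59, beside 0 over all genes. Of the 12 LT-HSC markers, which include the sort gene Emcn, 4 were likewise called higher in EMCN+ and none lower, namely Procr (1.20 ± 0.22, adjusted p = 0.00795), Mecom, Fgd5 and Mllt3, and the median of these markers was 0.62. The part of this difference in the levels of the members and the guidance genes was not tested.

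Against GMPs, 22 of the 31 guidance genes were higher and 5 lower in EMCN+, and 19 higher and 6 lower in EMCN- LT-HSCs. Beside this, 61.3% and 52.7% of all genes were called. Genes without a GMP count, such as Slit2, had to differ. Plxnc1, the receptor of SEMA7A, stood at 200 ± 31.9 and 179 ± 25.2 CPM in EMCN+ and EMCN- against 18.9 ± 1.38 CPM in GMP libraries. Srgap3, which acts downstream of roundabout receptors, stood at 58.6 ± 5.55 and 51.6 ± 2.99 against 6.07 ± 1.21 CPM. Of the genes closest to Robo4, Robo1 averaged 6.16 CPM in the EMCN+ and 2.78 CPM in the EMCN- fraction, and the ligand gene Slit2 at 3.78 and 1.59 CPM with no GMP count. Sema4a (1.24 and 1.96 against 16 CPM) and Nrp1, the co-receptor neuropilin-1 (0.249 and 0.514 against 11.6 CPM), were lower than in GMPs. Plxnd1 was lower than in GMPs as well, with a log2 difference of -1.08 ± 0.14 in EMCN- LT-HSCs (adjusted p = 2.12e-06), which became -0.36 (adjusted p = 0.0523) under total-count scaling.

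**Figure D4:**
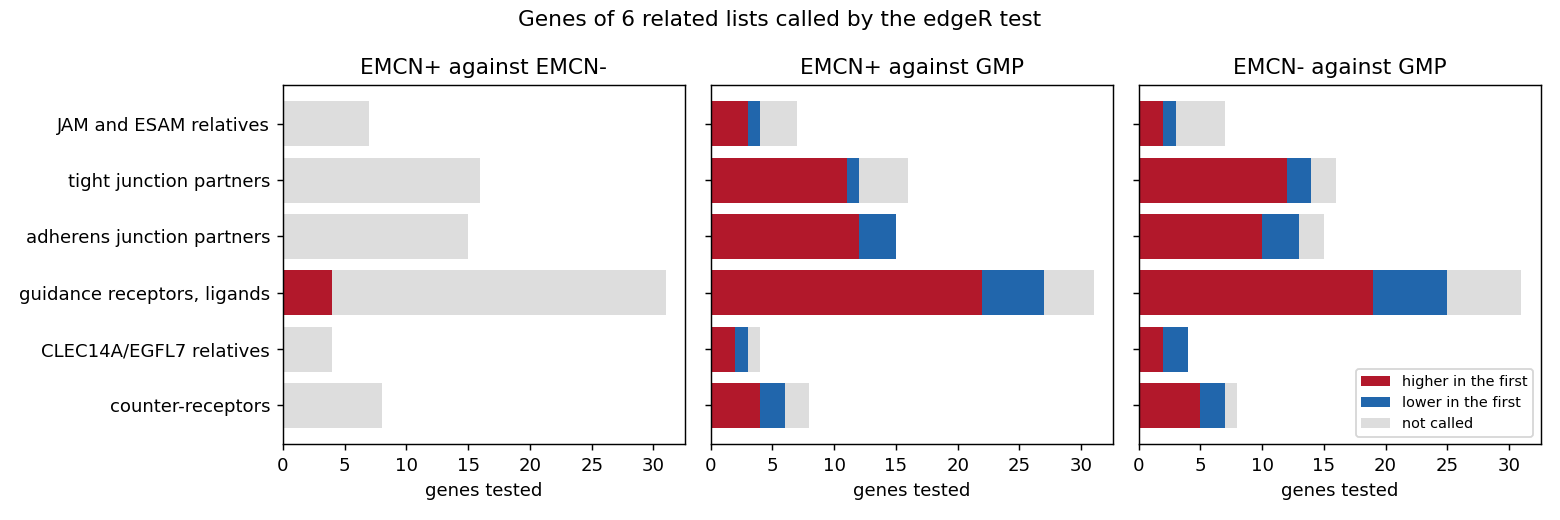
Bars count the tested genes of 6 related lists that were called higher (red), called lower (blue) or not called (grey) by edgeR in the first-named population, for EMCN+ against EMCN- LT-HSCs and for each LT-HSC fraction against GMPs. Calls between the LT-HSC fractions appear in the guidance list alone, 4 of 31 genes, while calls against GMPs appear in all 6 lists. Over all genes, 61.3% (EMCN+) and 52.7% (EMCN-) were called against GMPs.

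The other lists were smaller. Of 7 tested relatives of the JAMs and ESAM, 3 were higher and 1 lower in EMCN+ LT-HSCs than in GMPs, and 2 higher and 1 lower in EMCN- LT-HSCs. That is no more than the 61.3% and 52.7% called over all genes. Vsig2 and Cd248, without a GMP count, passed the filter through the LT-HSC libraries. Vsig2 stood at 4.46 ± 0.733 and 2.77 ± 1.54 CPM with no GMP count, Nectin3 at 2.20 ± 0.150 and 1.15 ± 1.04 CPM with 3 GMP counts, and Pvr, the poliovirus receptor, was lower at 4.48 ± 1.07 and 5.05 ± 0.796 against 9.79 ± 2.64 CPM. Nectin3 in EMCN- LT-HSCs lost its call without EMCN- replicate 4 (adjusted p = 0.150, edgeR) and Pvr without EMCN- replicate 1 (0.0545), and under total-count scaling Pvr was called in neither fraction (0.301 and 0.505). No relative was called between the fractions by edgeR, DESeq2 or limma-voom, and 0 had an unadjusted p under 0.05 (edgeR), Cxadr (0.97 ± 0.48, adjusted p = 0.378) and Nectin1 (0.79 ± 0.44, adjusted p = 0.442) coming nearest, and the median was 0.89. Of 4 tested relatives and partners of CLEC14A and EGFL7, Mmrn1, of the multimerin family to which the CLEC14A ligand MMRN2 belongs, was at 270 ± 43.8 and 219 ± 34.8 CPM against 0.424 ± 0.596 CPM in GMPs, and Cd248, a lectin of the same group as CLEC14A, at 5.05 ± 1.35 and 2.30 ± 0.788 CPM with no GMP count. Thbd, thrombomodulin, another lectin of that group, was lower than in GMPs in both fractions, at 2.83 ± 0.909 and 3.24 ± 1.25 against 10.2 ± 2.50 CPM. Cd93 was not called in EMCN+ LT-HSCs against GMPs (-0.23 ± 0.12, adjusted p = 0.102) and was lower in EMCN- LT-HSCs (-0.42 ± 0.13, adjusted p = 0.00905), a direction that flipped under total-count scaling (0.30, adjusted p = 0.0813) and a call lost without EMCN- replicate 4 (0.051). None of the 4 was called between the fractions by edgeR, DESeq2 or limma-voom, 1 had an unadjusted p under 0.05 (edgeR) and the median was 0.25. Cd248 (1.11 ± 0.48, adjusted p = 0.302) and Cd93 (0.20 ± 0.13, adjusted p = 0.539) came nearest.

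Leukocyte receptors that bind JAMs or PECAM-1 were mixed. Their calls against GMPs stand beside 61.3% of all genes called for EMCN+ and 52.7% for EMCN- LT-HSCs. Of 8 tested, 4 were higher and 2 lower in EMCN+ LT-HSCs than in GMPs, and 5 higher and 2 lower in EMCN- LT-HSCs, and none was called between the fractions by edgeR, DESeq2 or limma-voom (median 0.04, 2 at an unadjusted p under 0.05 with edgeR). Itgb3, the integrin chain of platelets, was at 29.3 ± 2.47 and 25.7 ± 3.00 against 8.16 ± 3.13 CPM, and Cd38, which PECAM-1 binds, at 3.58 ± 1.30 and 2.62 ± 0.231 against 0.165 ± 0.224 CPM. Itgb1 was higher by 0.73 ± 0.13 in EMCN- LT-HSCs (adjusted p = 5.23e-05, edgeR). Itgal, the LFA-1 chain that binds JAM-A, was lower, at 3.07 ± 0.743 and 4.95 ± 1.91 against 49.1 ± 4.92 CPM. Itgam, the Mac-1 chain that binds JAM-C, was lower, with a log2 difference of -0.75 ± 0.26 in EMCN+ (adjusted p = 0.0228) and -1.12 ± 0.30 in EMCN- LT-HSCs (adjusted p = 0.00566). Total-count scaling turned the EMCN+ value to 0.10 (adjusted p = 0.745) and ended the EMCN- call (adjusted p = 0.284), and the EMCN+ call was also lost without GMP replicate 1 (0.0604), GMP replicate 2 (0.0591) or EMCN+ replicate 3 (0.0694). The smallest p values between the fractions were those of Itgal (-0.67 ± 0.25, adjusted p = 0.206) and Itgb2 (-0.41 ± 0.16, adjusted p = 0.243).

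Because the members are endothelial genes, 22 further endothelial markers were set beside them. Their summed level was 92.4 to 113 CPM in EMCN+, 72.1 to 75.9 CPM in EMCN- and 15.0 to 17.5 CPM in GMP libraries, so it moved with the differences described above. A count was found for 19, 14 and 15 of the 22 in the same order. These numbers were not corrected for depth. EMCN+ had 4 libraries of 4.39 to 11.1 M counts and EMCN- had 3 of 3.63 to 5.65 M. The largest part of the LT-HSC sum came from Tek, the angiopoietin receptor that LT-HSCs also carry, at 51.2 ± 8.94 and 42.7 ± 1.41 CPM, with Podxl at 15.3 ± 0.562 and 13.9 ± 3.16, Ecscr at 10.9 ± 1.05 and 6.25 ± 2.38 and Kdr, the VEGF receptor, at 8.11 ± 1.59 and 4.56 ± 0.402 CPM. Flt1, a further VEGF receptor, went the other way, at 0.435 ± 0.523 and 0.496 ± 0.587 CPM against 9.13 ± 0.809 CPM in GMPs (adjusted p = 4.01e-05 and 0.000271, edgeR), and was the largest part of the GMP sum. Plvap and Stab1, which were not tested, also had their highest mean in GMPs, at 1.03 and 1.04 CPM. Lyve1 and Gpihbp1 were at 0 in all 11 libraries, and Sele in all 7 LT-HSC libraries. Sox17, Nos3, Aplnr, Esm1 and Sox7 had 3 counts or fewer over the EMCN+ libraries, and Mmrn2, the partner of CLEC14A, 12 counts. Of 10 tested, 1 was called between the fractions: Ramp2, a receptor component for adrenomedullin, was higher in EMCN+ at 5.16 ± 0.822 against 0.682 ± 0.242 CPM (2.92 ± 0.68, adjusted p = 0.028, edgeR), a call that was lost when any 1 of the 7 LT-HSC libraries was left out (0.0516 to 0.171). Whether endothelial cells in a gate had a part in the levels of the members was not tested.

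**Figure D5:**
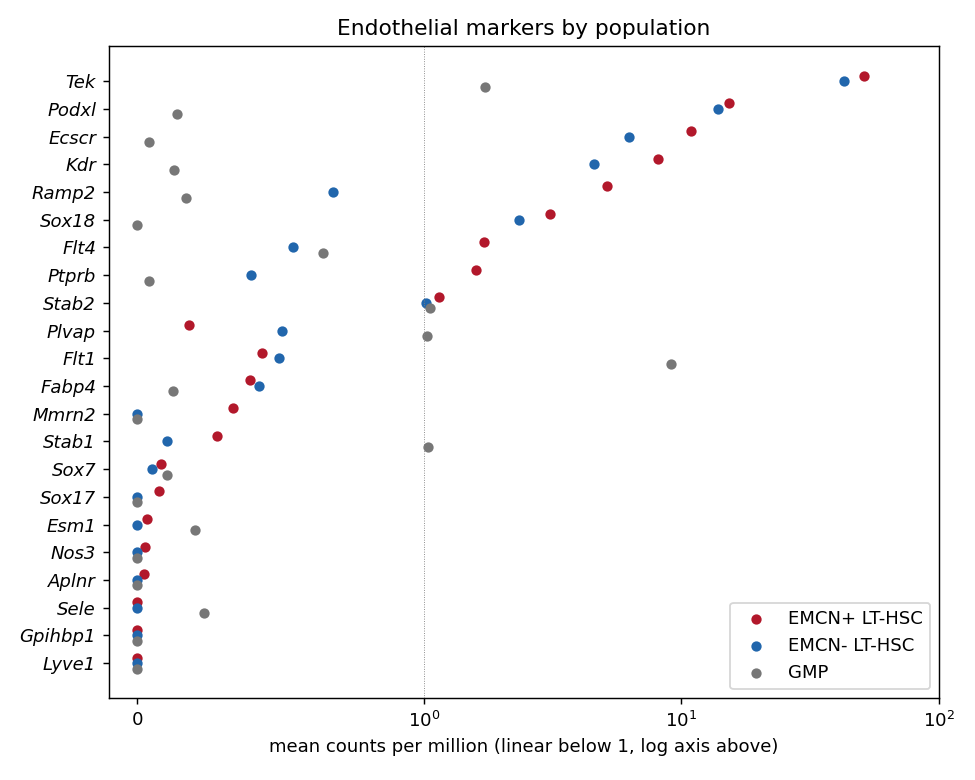
The plot gives the mean level of each of 22 endothelial markers (vertical axis) in counts per M counts, on an axis that is linear below 1 and logarithmic above, for EMCN+ (red) and EMCN- (blue) LT-HSCs and GMPs (grey). Tek, Podxl, Ecscr and Kdr carry most of the LT-HSC signal, and Lyve1 and Gpihbp1 sit at 0 in all populations.

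Platelets and their precursors also carry ESAM, JAMs and PECAM-1, and 15 megakaryocyte and platelet markers summed to 343 to 390 CPM in EMCN+, 335 to 404 CPM in EMCN- and 40.5 to 64.9 CPM in GMP libraries, with 3 of 12 tested called lower in EMCN+ than in EMCN- LT-HSCs, as was 1 of 9 erythroid markers. The ranges of the LT-HSC fractions overlapped. Of all genes tested, 1.19% were called lower in EMCN+ than in EMCN- LT-HSCs. Summed markers of erythroid cells were 18.3 to 21.1, 13.3 to 15.5 and 23.7 to 127 CPM in EMCN+, EMCN- and GMP libraries, those of marrow stroma 16.6 to 37.9, 18.8 to 26.8 and 17.8 to 30.0, those of lymphoid cells 12.5 to 17.1, 8.93 to 16.7 and 20 to 26.4, and those of mature myeloid cells 10.4 to 23.4, 8.46 to 17.0 and 491 to 1020. The part of any of these cells in the results was not tested.

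The genes nearest to each member in pattern were taken by Pearson's r of log2 CPM over the 11 libraries. These values describe mainly the distance between the LT-HSC and the GMP libraries, which all points share, and carry no p. Esam was nearest to Sla2 (r = 0.9988), Mycn (0.9983) and Klhl4 (0.9981), of which Sla2 and Klhl4 also had no GMP count, with means of 23.1 and 29.0 CPM in EMCN+ LT-HSCs. Jam3 was nearest to Abcg3 (0.9976), Robo4 to Eya2 (0.9986), F11r to Pglyrp2 (0.9948) and Egfl7 to Cdk18 (0.9919). The genes nearest to Jam2 and Clec14a were Pde9a (0.9937) and Clip3 (0.9958). Their means in EMCN+ against EMCN- LT-HSCs were 6.68 against 2.41 CPM and 24.6 against 8.44 CPM. Abcg3, Eya2, Pglyrp2 and Cdk18 also had the higher mean in EMCN+ LT-HSCs. All were chosen for a like pattern over these libraries, so sharing it is no separate result. Pecam1, whose levels span a narrow range, had its nearest gene, Brms1, at 0.9471.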

How the data were processed

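RNA of 11 sorted samples was sequenced in read pairs after preparation with a SMARTer stranded kit for low input of total RNA, per the labels' protocols. The authors deposited estimated counts per gene, for which the submitters' processing notes name cutadapt and Salmon; versions, build, annotation and strand setting are not given in the sources used here. Before fitting, values were rounded to whole numbers, which they already were. Replicates are separate mice, named by the mouse number in the labels.

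Genes were filtered by population (filterByExpr, minimum count 10), which left 14915 genes with 99.72% of the counts, 8 of the 10 members among them. One edgeR fit held all 11 libraries (version 4.0.16, R 4.3.3), with no mouse block, TMM library scaling and robust dispersions for the quasi-likelihood test. Its p values were adjusted by Benjamini-Hochberg over all genes, and genes under 0.05 were called. SEs are the log2 difference over the root of F. CPM uses TMM-scaled totals, and log2 CPM a prior count of 2. The fit was tested on simulated data. Ratios with few counts were taken from pooled counts with exact 95% intervals, and a count of 0 was set to 3 counts over the population. Replicate pairs differed beyond sampling noise (chi-square per degree of freedom 8.86 to 37.8, 15 pairs). Locations and lengths came from GENCODE M21, matched by identifier without version for 54094 of 54347 genes, and promoters from RefSeq.

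The same mouse gave several samples, so the mouse number pairs them: deviations from the population means correlated by 0.165 to 0.223 in the 3 pairs of EMCN+ and EMCN- libraries of one mouse, and by -0.246 to 0.190 in the 9 pairs from different mice. For EMCN+ and GMP libraries of one mouse the range was -0.0606 to 0.0613.

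The members and the 6 related and 8 marker lists were chosen with earlier results of these data known. All members were named, and from each related list up to 4 genes called between the fractions, up to 2 per direction called against GMPs, or, with no such gene, the 2 of smallest p; Robo1, Slit2 and the markers other than the highest and those at 0 were added after their values were seen. Alternatives were RLE factors, scaling by total counts, no low-count filter, 5 CPM in 3 libraries, DESeq2 1.42.0, limma-voom (limma 3.58.1), a mouse block, a fit without GMPs (7 libraries), the 3 pairs of LT-HSC samples with that block, and each library left out in turn.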

Additional observations from a re-analysis of the deposited data

Results flagged for a closer look

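In 4 genes a single GMP library held counts where the other 3 had none: Jam2 in mouse 4 at 1.31 CPM (7 counts), Jam3 in mouse 4 at 0.187 CPM (1 count), F11r in mouse 3 at 0.911 CPM (4 counts) and Clec14a in mouse 2 at 0.326 CPM (2 counts). With 3 libraries at 0, any count in the fourth sets it apart by construction, so these carry no error rate. In EMCN+ LT-HSCs, Jam3 in mouse 4 was read at 13.5 CPM, below the 17.7 to 18 CPM of the other mice. Chance sets apart about 1 in 20 groups of 4. In all, 17 groups were tested and 5 were flagged, those in GMPs included.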

How the results depend on the processing

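Between EMCN+ and EMCN- LT-HSCs, 293 genes and 0 members were called. Without the low-count filter these were 529 genes and 2 members, with DESeq2 446 genes, in the 7 LT-HSC libraries alone 1 member, and with the 6 paired LT-HSC libraries and a replicate block for mouse 908 genes and 2 members. Leaving out 1 library gave 55 to 338 genes and 0 members in each case. Against GMPs the same gave 8521 to 9331 genes and 8 to 9 members for EMCN+, and 7212 to 7861 genes and 7 to 8 members for EMCN- LT-HSCs. With mouse as a block over 11 libraries 374, 9347 and 7942 genes were called in the 3 comparisons, and of the members, the named genes of the related lists, Ramp2 and Emcn, each in the comparison it is named for, Sema7a alone changed its call. With scaling by total counts the sign turned for Pecam1 (0.047 between the fractions, 0.42 and 0.38 against GMPs), for Itgam (0.10, EMCN+ against GMP) and for Cd93 (0.30, EMCN- against GMP), and 76.3% of calls between the fractions were higher in EMCN+, against 39.2% with TMM, 56.1% in the 7 LT-HSC libraries alone and 50.8% with limma-voom; Pecam1 between the fractions also turned without EMCN- replicate 4 (0.019; lowest -0.13, without EMCN- replicate 1). The cause of these changes was not tested, apart from the number of genes or libraries that an alternative sets. The lower EMCN- depth, at which 3 counts are worth 0.177 CPM, limits what can be said of Cdh5 and Cldn5.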
